A study of Mus musculus with 2 samples.

Results

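The genes described are those of the aminoacyl-tRNA synthetases and of proteins named after them. A gene was a member if the table gave it the protein-coding biotype and its description contained the words tRNA synthetase, which selected 42 of 45777 genes without use of any measured value. A symbol ending in 2, or the word mitochondrial in the description, put 19 members on the mitochondrial side and left 23 on the cytosolic side. By known function, 38 of the 42 are synthetases or synthetase subunits, 21 cytosolic and 17 mitochondrial. Of the rest, Aimp1 and Aimp2 are scaffold proteins and Aarsd1 and Prorsd1 carry a synthetase-related domain. Aimp2 and the cytosolic threonyl enzyme Tarsl2 stood on the mitochondrial side only because of their symbols. All 42 members passed the expression filter of 1 CPM (counts scaled to library size) in at least 1 library, as did 13367 genes in all, so no member dropped out.

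Messenger RNA was sequenced from 2 cultures of YTN16, a gastric cancer line of the mouse. The culture named shGas6 carried a short hairpin RNA against Gas6, the secreted ligand of the receptor AXL, and is labelled a Gas6 knockdown. The culture named shControl carried a control hairpin and is labelled WT. Both were grown in the same serum-containing medium, and how the hairpins were introduced, or whether clones were picked, is not given in the sources used here. There was 1 library per group, so no spread between cultures could be estimated, no test was possible, and every difference below lacks a replicate check. Brackets hold exact 95% intervals for counting error only.

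Aminoacyl-tRNA synthetases join each amino acid to its transfer RNA, the step that sets the genetic code. Mammalian cells have a cytosolic set and a largely separate nuclear-encoded mitochondrial set. Gars and Kars are the exceptions, since each gives rise to a cytosolic and a mitochondrial form, which gene-level counts cannot separate. Several cytosolic enzymes sit together in the multisynthetase complex, held by the AIMP scaffold proteins, and the others lie outside it. When charging fails, the kinase GCN2 phosphorylates eIF2alpha and translation of the transcription factor ATF4 rises. ATF4 is known to act on genes of amino acid import and synthesis and on many cytosolic synthetase genes.

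The libraries held 51807140 counts in shGas6 and 50756676 in shControl. Gas6 itself was at 14.1 CPM in shGas6 and 48.8 CPM in shControl, 3.45-fold lower. Of 5 epithelial markers, Krt8, Krt18, Krt19 and Cdh1 lay between 218 and 2974 CPM in shGas6 and between 112 and 2107 CPM in shControl, whereas Epcam was at 0.503 CPM in shGas6 and 0.629 CPM in shControl. The 5 leukocyte markers summed to 4.66 CPM in shGas6 and 5.39 CPM in shControl, with Tyrobp at 0 counts in both. The 6 fibroblast markers summed to 2.51 CPM in shGas6 and 1.44 CPM in shControl, with Col1a2 and Lum at 0. The 3 endothelial markers summed to 4.29 CPM in shGas6 and 12.4 CPM in shControl, mostly from Cdh5, with Kdr at 0. The members took 0.647% of the counts in shGas6 and 0.529% in shControl, and their single counts ran from 399 to 47625 in shGas6 and from 286 to 40602 in shControl.

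A group of cytosolic genes was higher in shGas6, whereas no mitochondrial gene passed the mark of 1.5-fold. On the cytosolic side, 8 of 23 members, or 34.8%, passed 1.5-fold upward, where 16.0% of all measured genes did. None of the 23 passed it downward, where 12.6% of all measured genes did. On the mitochondrial side, 0 of 19 passed 1.5-fold in either direction. The median log2 ratio of shGas6 over shControl was 0.34 on the cytosolic side, -0.03 on the mitochondrial side and -0.01 over all measured genes. These medians and their difference of 0.37 were the same when the members were split by known function instead. At 2-fold, 1 cytosolic member was higher (8.64% of all measured genes) and none was lower (6.19%). With the whole counting interval required to pass 1.5-fold, 6 cytosolic members were higher, where 11.9% of all measured genes were, and none was lower (8.75%).

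**Figure D1:**
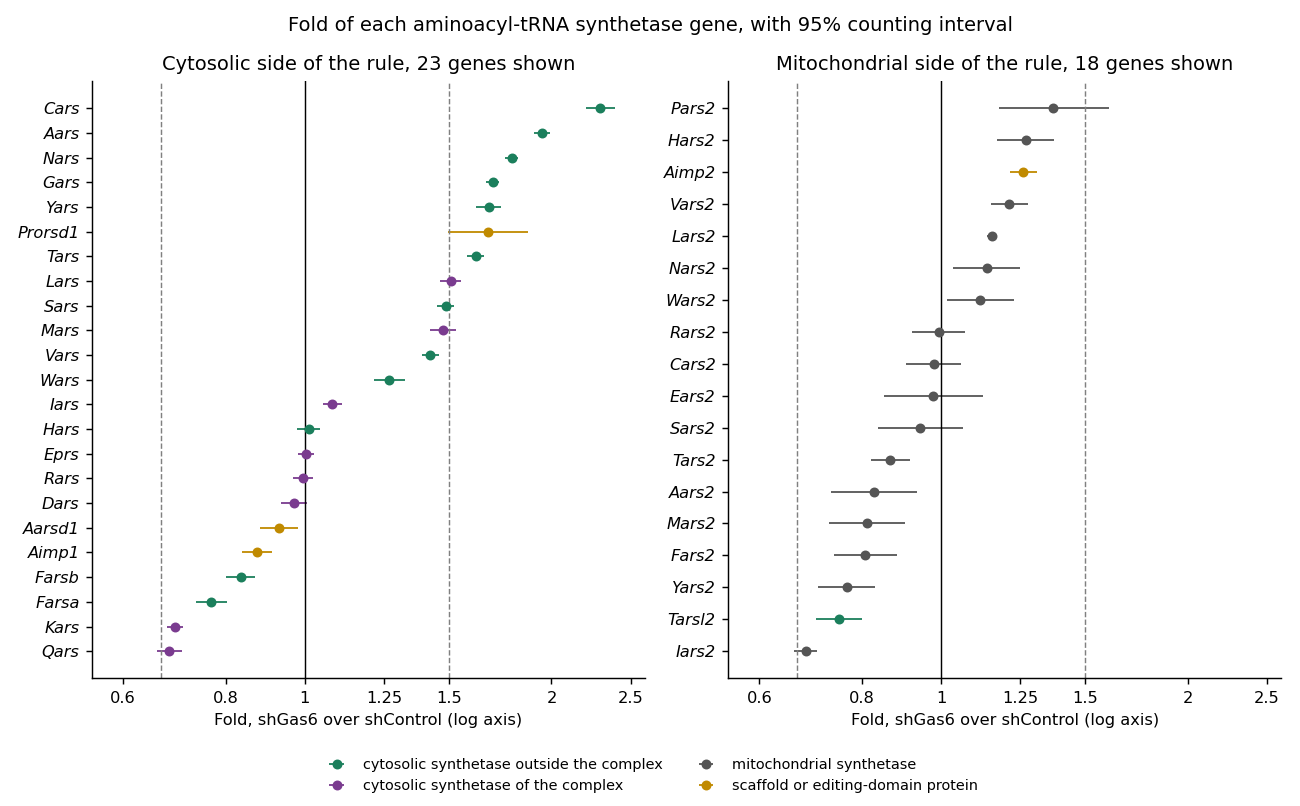
Fold of each member shown in shGas6 over shControl, on a log axis, with its exact 95% counting interval as a bar and dashed lines at 1.5-fold in each direction; colours mark the kind of protein. Cars lies furthest right at 2.29-fold, 8 genes of the cytosolic panel lie past 1.5-fold, and no gene of the mitochondrial panel does.

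Cytosolic synthetases outside the multisynthetase complex had the largest ratios. Cars, which charges cysteine tRNA (NCBI gene 27267, chromosome 7, 143557230 to 143600090), had 7464 counts (144 CPM) in shGas6 and 3198 counts (62.9 CPM) in shControl. It was 2.29-fold higher (2.20 to 2.39) and was the single member past 2-fold. Aars, the alanyl enzyme (chromosome 8, 111027778 to 111055569), had 21440 counts in shGas6 and 10822 in shControl, 1.95-fold higher (1.90 to 1.99), just short of the 2-fold mark. Nars, the asparaginyl enzyme, had 30784 counts in shGas6 and 16917 in shControl, 1.79-fold higher (1.76 to 1.82). Aars and Nars lay next in order below Cars. Gars, the glycyl enzyme that serves both compartments, had 31067 counts in shGas6 and 18002 in shControl, 1.70-fold higher (1.67 to 1.73). Yars, the tyrosyl enzyme, had 8143 counts in shGas6 and 4777 in shControl, 1.68-fold higher (1.62 to 1.74). Tars, the threonyl enzyme, had 18340 counts in shGas6 and 11156 in shControl, 1.62-fold higher (1.58 to 1.65). These 6 are the members whose whole counting interval lay past 1.5-fold.

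Promoters were searched because ATF4, paired with C/EBP-family proteins, is known to bind a composite site often written TGATGNAA, where N is any base. That motif (reverse complement TTNCATCA) and the stricter TGATGCAA (reverse complement TTGCATCA), which is contained in it, were searched on both strands of RefSeq promoter windows of GRCm38.p6, 250 bases before to 50 after a start site. Windows were found for 32 of the 42 members. Among the others, Cars, Hars, Hars2, Lars, Nars, Pars2, Rars, Vars and Wars had no window. Shown are the 5 members whose windows held TGATGNAA, chosen for that match and not for their ratio. In the lines below the 300 bases of Aars are given whole and 80 bases around the match for the others, 5′ to 3′ on the strand of the gene, with capitals on the bases that match TGATGNAA or its complement.
Aars, chr8:111033592-111033891, plus strand: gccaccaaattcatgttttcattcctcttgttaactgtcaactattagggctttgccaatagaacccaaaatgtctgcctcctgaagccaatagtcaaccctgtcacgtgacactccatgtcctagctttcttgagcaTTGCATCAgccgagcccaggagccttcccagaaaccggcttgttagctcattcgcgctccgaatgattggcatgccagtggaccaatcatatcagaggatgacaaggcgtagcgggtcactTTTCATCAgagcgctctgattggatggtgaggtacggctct
Gars, chr6:55037931-55038010, plus strand: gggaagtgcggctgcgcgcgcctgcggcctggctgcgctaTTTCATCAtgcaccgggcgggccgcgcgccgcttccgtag
Iars, chr13:49682097-49682176, plus strand: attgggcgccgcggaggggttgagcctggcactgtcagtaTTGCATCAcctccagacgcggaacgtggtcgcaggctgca
Tars, chr15:11399634-11399713, minus strand: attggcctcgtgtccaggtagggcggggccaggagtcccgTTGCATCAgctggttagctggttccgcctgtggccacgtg
Yars, chr4:129189866-129189945, plus strand: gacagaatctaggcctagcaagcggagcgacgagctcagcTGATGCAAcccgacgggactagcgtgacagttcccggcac

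TGATGNAA was found in the windows of 5 of 16 cytosolic-side members and 0 of 16 mitochondrial-side members, against 4.51% of the 27025 genes with a window. TGATGCAA was found in 4 of the 16 cytosolic-side members, Aars, Iars, Tars and Yars, against 1.03% of all genes with a window. Of the 4 cytosolic synthetases with a window that were at least 1.5-fold higher, Aars, Gars, Tars and Yars, all 4 held TGATGNAA. Prorsd1, a cytosolic-side member past 1.5-fold that is no synthetase, had a window without a match. Of the 10 other cytosolic synthetases with a window, 1 held TGATGNAA, and that gene, Iars, was 1.08-fold higher (1.05 to 1.11). Sars (1.49-fold higher) and Mars (1.47-fold higher) are among those without a match, and their counting intervals contain 1.5. Both passed 1.5-fold with deposited TPM, so the contrast depends on where the mark is set. The matches began 112 bases upstream of the start site in Aars, 30 bases upstream in Gars and 15 bases upstream in Tars. A second match in Aars began 9 bases downstream of the start site, and those of Iars and Yars 7 and 3 bases downstream. The Aars window surrounds a start site at 111033842 and the Yars window one at 129189903, each inside its gene as RefSeq delimits it. A match is a run of letters and not a measured binding site, and the windows cover only the bases next to the listed start sites.

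Enzymes near the 1.5-fold mark included synthetases within and outside the complex. Lars, the leucyl enzyme and a subunit of the complex, had 10985 counts in shGas6 and 7171 in shControl, 1.51-fold higher (1.46 to 1.55). Sars, the seryl enzyme outside the complex, had 16202 counts in shGas6 and 10719 in shControl, 1.49-fold higher (1.45 to 1.52). Mars, the methionyl enzyme of the complex, had 6989 counts in shGas6 and 4662 in shControl, 1.47-fold higher (1.42 to 1.53). The intervals of these 3 genes all contain 1.5, so counting error alone does not place them on either side of it. Vars, the valyl enzyme and also outside the complex, was 1.42-fold higher (1.39 to 1.46). Wars, the tryptophanyl enzyme, which interferon gamma is known to induce, was 1.27-fold higher (1.21 to 1.32).

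Other cytosolic synthetases were close to equal or lower in shGas6. Hars, for histidine, was at 147 CPM in shGas6 and 146 CPM in shControl. In the complex, the bifunctional glutamyl-prolyl enzyme Eprs was at 281 CPM in shGas6 and 280.1 CPM in shControl. The arginyl enzyme Rars was at 193 CPM in shGas6 and 194 CPM in shControl, and the aspartyl enzyme Dars at 113 CPM in shGas6 and 117 CPM in shControl. The counting intervals of these 4 folds contained 1. Qars, the glutaminyl enzyme, had 4964 counts in shGas6 and 7141 in shControl, 1.46-fold lower (1.41 to 1.52), the lowest ratio of the cytosolic side. Kars, the lysyl enzyme that serves both compartments, had 12712 counts in shGas6 and 18011 in shControl, 1.44-fold lower (1.41 to 1.47). Qars and Kars both belong to the complex. The alpha and beta subunits of the phenylalanyl enzyme, Farsa and Farsb, form 1 enzyme outside the complex. Farsa was 1.30-fold (1.24 to 1.36) and Farsb 1.197-fold lower (1.15 to 1.248). Tarsl2, the second cytosolic threonyl enzyme, was 1.33-fold lower (1.2499 to 1.42), whereas Tars was higher.

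The cytosolic synthetases were also grouped by position in the multisynthetase complex and by catalytic class. The 13 synthetases outside it had a median log2 ratio of 0.57, with 6, or 46.2%, at least 1.5-fold higher, where 16.0% of all measured genes were. The 8 within it had a median of -0.00, with 4 ratios above 0 and 4 below, close to the 49.1% and 50.9% of all measured genes. At least 1.5-fold higher was 1 of them, Lars, or 12.5%, close to the share of all measured genes. Chromosomes differed in the median log2 ratio of their measured genes. After subtraction of that median, Mars was at 0.50, Lars at 0.44, Iars at 0.40, Eprs at 0.32 and Dars at 0.27. Rars was then at -0.07, Kars at -0.36 and Qars at -0.54. Outside the complex, Cars was then at 1.16, Aars at 1.13, Gars at 0.74, Yars at 0.72, Nars at 0.68 and Sars at 0.58. Vars was at 0.46, Tars at 0.43, Wars at 0.27 and Farsb at 0.06. Hars was at -0.14, Farsa at -0.21 and Tarsl2 at -0.45. The groups within and outside the complex thus lay closer together than before subtraction. The part of the chromosomes in the order by complex was not tested. By catalytic class, 3 of 9 class I enzymes and 4 of 11 class II enzymes passed 1.5-fold upward, against 16.0% of all measured genes. The median log2 ratios were 0.51 for class I and 0.02 for class II. Eprs, which holds an active site of each class, was left out of that count. The 3 scaffold proteins differed among themselves. Aimp2 was 1.26-fold higher (1.21 to 1.31), Aimp1 1.14-fold lower (1.10 to 1.19), and Eef1e1, the third scaffold and not a member by its description, 1.45-fold lower (at 39.9 CPM in shGas6 and 57.8 CPM in shControl). Over the 11 genes of the whole complex the median was -0.01.

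Synthetases that general knowledge lists as ATF4-responsive accounted for most of the higher ratios. The list (Aars, Cars, Eprs, Gars, Iars, Mars, Nars, Sars, Tars, Wars and Yars) was drawn up with earlier results of these libraries known, so its direction is not independent evidence. All 11 ratios were above 0, where 49.1% of all measured genes were, and their median log2 ratio was 0.69. Past 1.5-fold upward were 6 of them, or 54.5%, where 16.0% of all measured genes were. Of the 10 cytosolic synthetases not listed, 3 had a ratio above 0 and 7 below (50.9% of all measured genes), with a median of -0.15. The 8 listed enzymes outside the complex ran from 0.34 to 1.20 and the 3 within it from 0.00 to 0.56. The 5 unlisted enzymes outside the complex had a median of -0.26 and the 5 unlisted enzymes within it -0.04, so the order by complex seen over all cytosolic synthetases was turned round among these. List and complex overlap in part, and their shares in the pattern were not tested apart.

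Proteins with a synthetase-related domain differed in direction. Prorsd1, which resembles the editing domain of bacterial prolyl enzymes, had 851 counts in shGas6 and 500 in shControl, 1.67-fold higher (1.496 to 1.87). Aarsd1, related to the alanyl editing domain, which removes wrongly attached serine, had 2666 counts in shGas6 and 2821 in shControl, 1.08-fold lower (1.02 to 1.14). Of the distinct 31-base stretches in the Aarsd1 coding transcripts, 82.1% also occur in transcripts of the overlapping gene Gm27029, so its count is uncertain.

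The mitochondrial synthetases spread narrowly around equality. Of the 17, 6 had a ratio above 0 and 11 below, where 49.1% and 50.9% of all measured genes were. The log2 ratios ran from -0.55 to 0.45. Iars2, for isoleucine, had 6722 counts in shGas6 and 9674 in shControl, 1.46-fold lower (1.42 to 1.51). It maps to chromosome 1, where the median log2 ratio over 782 measured genes was -0.32. Mars2, also on chromosome 1, was 1.23-fold lower (1.11 to 1.37). Yars2 was 1.30-fold lower (1.204 to 1.41), Fars2 1.24-fold (1.13 to 1.35), Aars2 1.21-fold (1.07 to 1.36) and Tars2 1.15-fold (1.09 to 1.22). For these 6 genes the counting interval excluded 1.

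At the upper end, Pars2, the mitochondrial prolyl enzyme, had 399 counts in shGas6 and 286 in shControl, 1.37-fold higher (1.18 to 1.60). Its interval was the widest on the mitochondrial side and contained 1.5. Hars2 was 1.27-fold higher (1.17 to 1.37) and Vars2 1.21-fold (1.15 to 1.28). Lars2, Nars2 and Wars2 were between 1.12-fold and 1.15-fold higher, with intervals above 1. Rars2, Cars2, Ears2 and Sars2 lay between 0.943 and 0.993 of the control level, with intervals that contained 1. At a lower threshold, a log2 ratio of 0.32 in size, 3 mitochondrial-side members were higher (Pars2, Hars2 and Aimp2) and 4 lower (Iars2, Tarsl2 and Yars2 among them), where 26.4% and 24.0% of all measured genes were. On the cytosolic side the counts at that threshold were 12 higher and 3 lower.

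**Figure D2:**
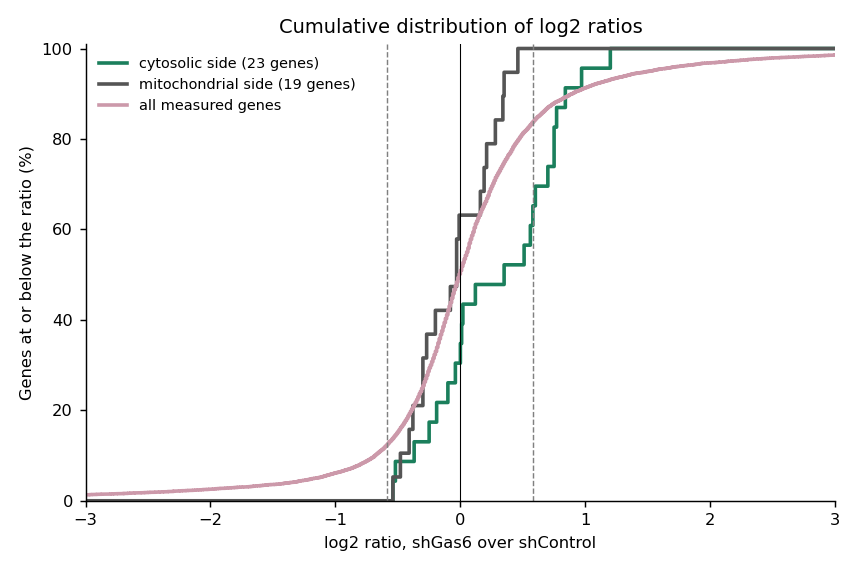
Cumulative share of genes (vertical axis, in percent) at or below each log2 ratio of shGas6 over shControl (horizontal axis), for the cytosolic side, the mitochondrial side and all measured genes, with dashed lines at 1.5-fold. The mitochondrial curve reaches 100% before the upper dashed line, whereas the cytosolic curve lies to the right of that of all genes around its median of 0.34.

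For most amino acids the cytosolic gene had the higher ratio of the pair. Of 19 pairings of a cytosolic and a mitochondrial gene for the same amino acid, over 17 amino acids, the cytosolic ratio was higher in 15, with a median difference of 0.39 on the log2 scale. The gap was widest for alanine, where Aars was at 0.96 and Aars2 at -0.27, and for cysteine, where Cars was at 1.20 and Cars2 at -0.03. Tyrosine was similar, with Yars at 0.74 and Yars2 at -0.38. The order was turned round for histidine, with Hars at 0.02 and Hars2 at 0.34, and for proline, with Eprs at 0.00 and Pars2 at 0.45. The other 2 exceptions were Farsa with Fars2 and Tarsl2 with Tars2. For arginine, Rars and Rars2 were both at -0.01. That pairing counts among the 15, as do Eprs with Ears2 and Farsb with Fars2, where the differences were 0.04 and 0.05. Gars (0.76), Kars (-0.53) and Qars (-0.55) enter no pairing, because the members include no separate mitochondrial gene for their amino acids. Eprs and Tars2 enter 2 pairings each, as does Fars2, so the pairings are not independent.

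**Figure D3:**
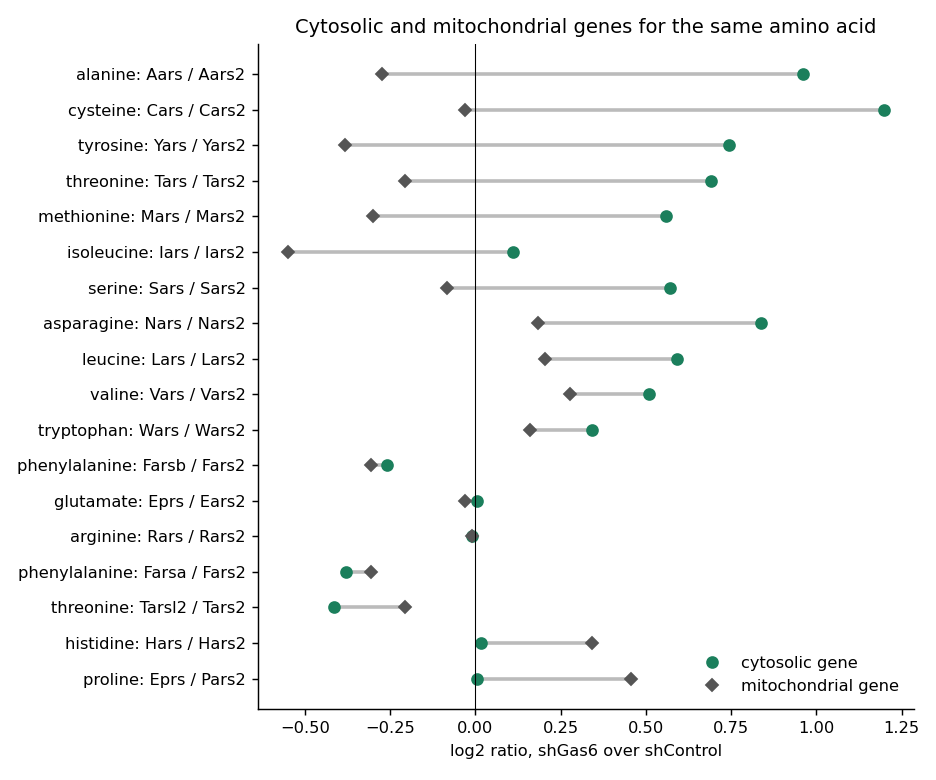
Log2 ratio of shGas6 over shControl (horizontal axis) of the cytosolic gene (circle) and the mitochondrial gene (diamond) for each pairing drawn, sorted by the gap between them. The circle lies to the right in 14 of the 18 pairings drawn, with the widest gaps for alanine and cysteine.

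Levels per transcript length were compared with the deposited TPM values, which are scaled to transcript length. The cytosolic synthetases together made up 3448 TPM in shGas6 and 2623 TPM in shControl, a sum 31.4% higher in shGas6. That difference came from enzymes outside the complex, at 2427 TPM in shGas6 and 1554 TPM in shControl. The enzymes of the complex summed to 1021 TPM in shGas6 and 1070 TPM in shControl. In shGas6 the most abundant cytosolic enzymes were Gars at 516 TPM, Nars at 461 TPM and Tars at 276 TPM. In shControl they were Kars at 336 TPM, Gars at 294 TPM and Nars at 249 TPM. Kars had a level of 241.5 TPM in shGas6, below Tars. Cars was at 109 TPM in shGas6 and 44.1 TPM in shControl, the lowest cytosolic enzyme of that library apart from Tarsl2, which was at 20.7 TPM in shGas6 and 26.7 TPM in shControl.

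Mitochondrial synthetases had lower levels, with a median of 18.4 TPM in shGas6 and 22.8 TPM in shControl, against 111 TPM in shGas6 and 104 TPM in shControl for the cytosolic ones. Lars2, the mitochondrial leucyl enzyme, stood apart at 480.2 TPM in shGas6 and 404 TPM in shControl. It carried 58.9% of the summed mitochondrial level in shGas6 and 51.9% in shControl. The next was Iars2, at 74.8 TPM in shGas6 and 106 TPM in shControl, and the lowest was Ears2, at 3.54 TPM in shGas6 and 3.25 TPM in shControl. With Lars2 the mitochondrial sum was 816 TPM in shGas6 and 779 TPM in shControl. Without it the sum was 335 TPM in shGas6 and 375 TPM in shControl, so the order of the libraries depended on this gene. Leucine was also the sole amino acid for which the mitochondrial gene had the higher level in shGas6, apart from the pairing of Tars2 with Tarsl2. In shControl isoleucine was a further one, with Iars2 at 106 TPM and Iars at 94.8 TPM. Lars2 did not reach the minimum of 50 shared 31-base stretches with GENCODE M21 transcripts of another gene. Sequence outside those transcripts was not searched, and similar but not identical sequence would not be found this way. Whether all of the Lars2 count comes from its messenger RNA was not tested.

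**Figure D4:**
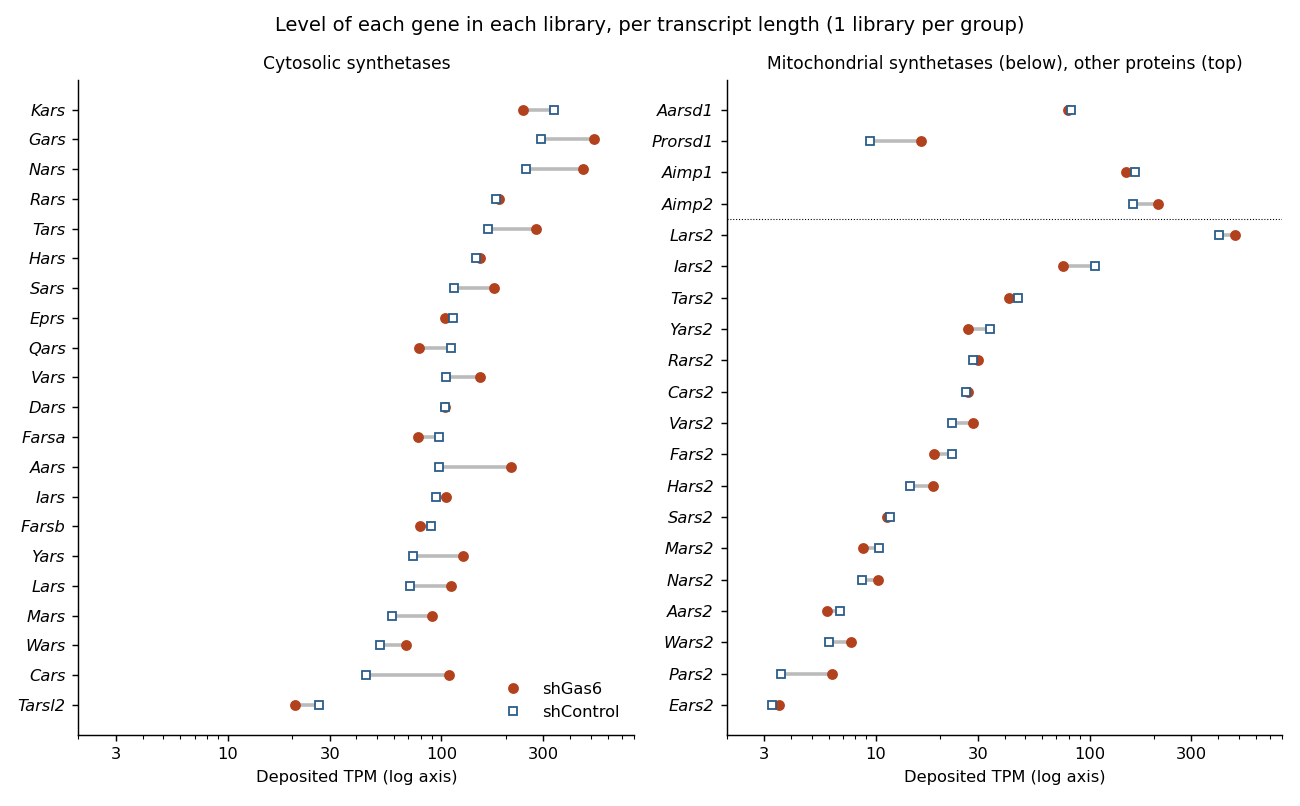
Deposited TPM of each member shown, in shGas6 (filled circles) and shControl (open squares), on a log axis, with 1 library per group. Cytosolic synthetases are on the left; on the right, mitochondrial synthetases lie below the dotted line and scaffold and domain proteins above it. Lars2 lies far above the other mitochondrial enzymes, at 480.2 TPM in shGas6 and 404 TPM in shControl.

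Members on 1 chromosome did not all have ratios of the same sign. Aars, which ends at 111055569, and Kars, which starts at 111993439, are both on chromosome 8 (median log2 ratio -0.17 over its measured genes), and Aars was at 0.96 and Kars at -0.53. Vars and Vars2 on chromosome 17 were both above 0, at 0.51 and 0.28. Eprs and Iars2 lie near each other on chromosome 1 and were at 0.00 and -0.55, and the counting interval of Eprs contained 1. Of the cytosolic genes past 1.5-fold, Nars and Lars lie on chromosome 18 (median 0.16) and Tars on chromosome 15 (median 0.26). After subtraction of the chromosome median, the log2 ratio was 1.13 for Aars, 0.68 for Nars, 0.44 for Lars and 0.43 for Tars, and that of Cars was 1.16. Lars and Tars then lay below 1.5-fold.

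Some members overlap other genes, and the strand setting of the counting is not known. In 7 members at least 10% of the distinct 31-base stretches of the coding transcripts also occur in another gene, on either strand. For Aars the share is 20.3%, with the overlapping gene Exosc6, which had 833 counts in shGas6 and 1344 in shControl. For Iars2 it is 30.2%, with Rab3gap2 on the opposite strand, at 4857 counts in shGas6 and 5529 in shControl. For Aimp2 it is 38.5%, with Eif2ak1 on the opposite strand, which encodes the heme-regulated eIF2alpha kinase and had 7530 counts in shGas6 and 5589 in shControl. Cars2 (19.4%) and Iars (17.0%, with the pseudogene Gm4849) also exceeded 10%. The part of shared reads in these counts was not tested.

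Genes that act beside the synthetases in charging had a list median near that of all measured genes (cytosolic partners) or below it (mitochondrial partners). Of 15 cytosolic partners, 1 passed 1.5-fold upward and none downward, where 16.0% and 12.6% of all measured genes did, with a median log2 ratio of -0.01. The higher one was Trnt1, which adds the CCA end to transfer RNAs, at 104 CPM in shGas6 and 65.6 CPM in shControl, 1.59-fold higher (1.52 to 1.66). Xpot, the exportin that carries transfer RNA out of the nucleus, was 1.47-fold higher (1.42 to 1.52), and the peptidyl-tRNA hydrolase Ptrh2 1.38-fold (1.28 to 1.48). The elongation factor genes, whose products take up charged transfer RNA or recycle that factor, had ratios below 0 from counts. Eef1a1 was 1.08-fold lower, Eef1g 1.22-fold, Eef1b2 1.41-fold and Eef1d 1.04-fold. For Eef1d the direction depended on the measure, since its deposited TPM was 404 in shGas6 and 298 in shControl.

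Of 15 mitochondrial partners, 2 passed 1.5-fold upward, or 13.3%, close to the 16.0% of all measured genes, and none downward, with a median of -0.20. Mtif3, a mitochondrial initiation factor, was at 87.7 CPM in shGas6 and 46.0 CPM in shControl, 1.91-fold higher (1.81 to 2.004). Trmu, which thiolates mitochondrial transfer RNAs, was 1.55-fold higher (1.34 to 1.802). At the low end, Gtpbp3, another tRNA-modifying enzyme, was 1.42-fold lower and the elongation factor Gfm1 1.33-fold lower. Gatc and Qrsl1, subunits of the amidotransferase that makes mitochondrial glutaminyl-tRNA, were 1.28-fold and 1.29-fold lower, and their partner Gatb was at 12.3 CPM in shGas6 and 11.6 CPM in shControl.

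Genes of amino acid supply had larger ratios than the synthetases. Of 11 measured genes of amino acid synthesis, 9 passed 1.5-fold upward and none downward, where 16.0% and 12.6% of all measured genes did. The median of the list was 0.98. Asns, which makes the asparagine that Nars uses, was at 351 CPM in shGas6 and 112 CPM in shControl, 3.15-fold higher (3.06 to 3.25). Cth, which makes cysteine, was 2.38-fold higher (2.09 to 2.71), and Gpt2, which makes alanine, 3.66-fold (3.47 to 3.88). Pycr1 and Aldh18a1, which make proline, were 2.10-fold (1.88 to 2.33) and 1.86-fold higher (1.79 to 1.93), whereas the glutamyl-prolyl enzyme Eprs was at 1.00-fold. Got1, which makes aspartate, was 1.38-fold higher (1.33 to 1.43), and Dars was at 0.969 of the control level. Shmt2 and Psat1, of serine and glycine synthesis, were 1.65-fold and 1.54-fold higher. Of 10 measured transporters, 8 passed 1.5-fold upward and 1 downward, against the same shares of all measured genes, with a median of 1.02. The lower one was Slc7a3, at 0.754 CPM in shGas6 and 1.69 CPM in shControl. Slc6a9, a glycine transporter, was 5.37-fold higher (4.99 to 5.77), Slc1a4, for alanine, serine and cysteine, 4.10-fold (3.92 to 4.28) and Slc7a1, for arginine and lysine, 3.94-fold (3.86 to 4.02).

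The ATF4 pathway list contained transcripts of regulators as well as targets. At least 1.5-fold higher were 9 of its 14 genes, where 16.0% of all measured genes were, with a median of 1.35. Atf4 itself was at 697 CPM in shGas6 and 254 CPM in shControl, 2.74-fold higher (2.69 to 2.80). Chac1, which degrades glutathione, had 14612 counts in shGas6 and 527 in shControl, 27.3-fold higher (25.0 to 29.8), and Trib3, a pseudokinase that restrains ATF4, was 26.8-fold higher (24.3 to 29.6). Eif2ak4, the GCN2 kinase that senses uncharged transfer RNA, was at 15.5 CPM in shGas6 and 15.2 CPM in shControl, and its activator Gcn1 was 1.22-fold lower. Impact, an inhibitor of GCN2 activation, was 1.94-fold higher (1.83 to 2.05). Of the other eIF2alpha kinase genes, Eif2ak1 was 1.32-fold higher, Eif2ak3 1.30-fold lower and Eif2ak2 1.13-fold lower. No library measured tRNA charging or protein, so kinase activity is not covered by these values.

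**Figure D5:**
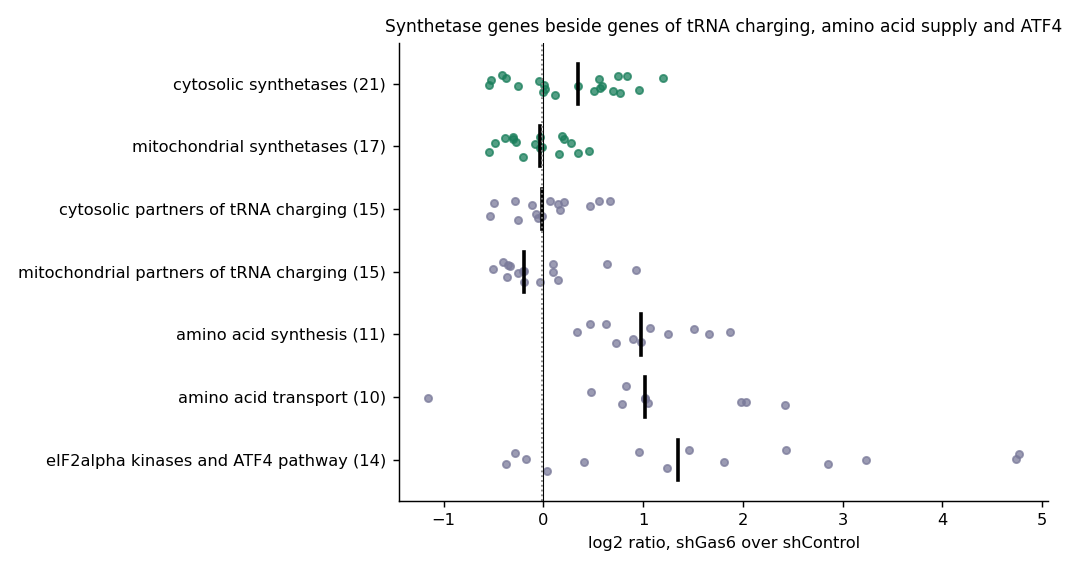
Log2 ratio of shGas6 over shControl (horizontal axis) of the measured genes of each list, with the number of genes in brackets, 1 point per gene, a black bar at the list median and a dotted line at the median of all measured genes. The medians of amino acid synthesis (0.98), transport (1.02) and the ATF4 pathway (1.35) lie to the right of that of the cytosolic synthetases (0.34), and those of the mitochondrial synthetases (-0.03) and of both partner lists lie near or below 0.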

How the data were processed

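Per the labels' protocols, total RNA was purified on columns before a stranded poly(A) library preparation. Trimmomatic and the build GRCm38 (mm10) are named per the submitters' processing notes. The step from reads to genes (aligner, strand, annotation) is not given in the sources used here. A single deposited table holds whole-number read counts per gene, which the authors left unscaled, and TPM and FPKM values, which the authors scaled to transcript length and library size. Columns were assigned to the libraries by their names, and 0 value columns were left unassigned.

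Scaling used TMM factors from edgeR 4.0.16 (R 4.3.3). Log2 ratios are of scaled counts plus a pseudocount of 0.5, and folds are of scaled counts. The binomial split of each gene's counts gave an exact 95% interval after Clopper and Pearson (scipy 1.17.1). PCR copies are not independent molecules, so intervals cover counting error only. Higher and lower were counted by size, at 1.5-fold. Coordinates are from RefSeq GRCm38.p6 by NCBI gene identifier (45679 of 45777 genes), and shared 31-base stretches from GENCODE M21 transcripts of the same build. Every member could be named, along with Gas6, fixed markers and up to 6 genes per pathway list with the largest ratios; further list genes were named for their role after their values were seen. The members and lists were chosen with earlier results of these data known. Values of 1 member, which is included in the counts and medians, are not reported here. The procedure was tested on simulated counts.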

Additional observations from a re-analysis of the deposited data

How the results depend on the processing

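The results were recomputed with scaling by library total, by upper quartile or by the size factors of DESeq2 1.42.0, with 5 as pseudocount, with filters at 5 CPM or 1 count, from deposited FPKM and from deposited TPM (pseudocount 0.1), with subtraction of the chromosome median, with a split by known localisation, with other thresholds, with the whole counting interval and, chosen after seeing the data, without Lars2. The cytosolic median stayed between 0.30 and 0.40 and the difference from the mitochondrial median between 0.36 and 0.42. The mitochondrial median (-0.03) was 0.0295 with deposited TPM, a scale on which the median of all measured genes lay 0.05 higher. The cytosolic count of 8 higher was 1 at 2-fold, and the cytosolic count of 0 lower was 3 at the lower threshold (a log2 ratio of 0.32) and 1 with upper-quartile scaling (Qars). The mitochondrial counts of 0 were 3 higher and 4 lower at that threshold, 1 lower with upper-quartile scaling (Iars2), and 1 higher (Pars2) and 1 lower with TPM and with FPKM. Fewer or more genes pass another threshold by construction; for the other settings the cause was not tested. Of 378 values of single members, 321 lay within the counting interval, 57 moved further and 0 of those at least 1.5-fold reversed. The pooled number includes the filters at 5 CPM and 1 count, which leave single ratios unchanged by construction. Of the 42 members, 22 moved with the chromosome median subtracted, 19 with deposited TPM and 11 with upper-quartile scaling. No paired analysis was possible because each group has 1 library. With 286 counts or more per member and library, depth limits Pars2, Ears2, Sars2 and Aars2 most, and the absence of replicates limits every value.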

Other observations

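The deposited TPM values and the counts did not give the same ratio for every member. Over all measured genes the log2 ratio from TPM lay 0.05 above that from counts by median, and over the 42 members by the same amount. For Pars2 it lay 0.32 higher, at 0.77 with TPM and 0.45 with counts, and for Wars2 0.18 higher. For Aars it was 1.13 with TPM and 0.96 with counts, which put Aars past 2-fold on the TPM scale. The sign differed for 6 members, Eprs, Rars, Dars, Rars2, Cars2 and Ears2, all within 0.05 of 0 by counts. Eprs was at -0.12 with TPM and 0.00 with counts, and Ears2 at 0.12 with TPM and -0.03 with counts. How the authors set the transcript length in each library is not given in the sources used here, and its part in these differences was not tested.

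Hars and Hars2 lie head to head on chromosome 18, where Hars ends at 36783205 and Hars2 starts at 36783202, so their annotated ends overlap. Hars had 7621 counts in shGas6 and 7410 in shControl, and Hars2 had 1420 in shGas6 and 1101 in shControl. Of the distinct 31-base stretches of the coding transcripts, 8.32% of those of Hars and 4.95% of those of Hars2 occur in the other gene on the opposite strand.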
